A study of Homo sapiens with 6 samples.

Results

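Mature miRNAs of the miR-148/miR-152, miR-26 and miR-101 families were followed in BEAS-2B, an established immortalised line of human bronchial epithelial cells. The 9 names were grouped by what the miRNAs are known to target, with earlier results of these data known, and all 9 were found among the 1727 known mature miRNA names of the series. Cells of the control group (n = 3 libraries) received the empty plasmid pcDNA3.1 and cells of the PRMT1 group (n = 3) the expression plasmid pcDNA-PRMT1, both for 48 h. PRMT1 is the main enzyme that places asymmetric dimethyl marks on arginines of histones and other proteins. The plasmid adds PRMT1 to the cells' own, and its level in these libraries was not analysed here. Nothing in the labels tells whether the replicates were separate cultures. P-values therefore measure the spread between these libraries, which may be technical.

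A miRNA is cut from a hairpin as a pair of strands, one of which is usually kept as the guide while the other is mostly degraded. The guide recognises messages through its seed, bases 2 to 8 from its 5′ end. The miR-148/miR-152 guides are known to target DNMT1, the enzyme that copies DNA methylation after replication, and the miR-26 and miR-101 guides are known to target EZH2, the methyltransferase subunit of Polycomb repressive complex 2. The series asked how miRNAs respond to PRMT1, and the comparison here is between the levels of these members in control and PRMT1 libraries.

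The guide sequences are shown because they explain which names can be confused with each other. They are RefSeq mature sequences, 5′ to 3′, with the seed in capitals. RefSeq held 8 of the 9 members. The member hsa-miR-148a-5p had no entry. The prefix hsa, for human, is left out below.
hsa-miR-148a-3p: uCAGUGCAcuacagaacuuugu
hsa-miR-148b-3p: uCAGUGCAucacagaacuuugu
hsa-miR-152-3p: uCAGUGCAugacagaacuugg
hsa-miR-26a-5p: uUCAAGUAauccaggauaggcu
hsa-miR-26b-5p: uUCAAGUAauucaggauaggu
hsa-miR-101-3p: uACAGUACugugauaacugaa
hsa-miR-26b-3p: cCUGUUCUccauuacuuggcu
hsa-miR-101-5p: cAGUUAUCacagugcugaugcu

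The miR-148a, miR-148b and miR-152 guides had the same seed. Counted from the 5′ end, miR-148a-3p and miR-148b-3p differed at 2 of 22 bases, C9U and U10C, both outside the seed. The guide of miR-152 differed from miR-148a-3p by C9U, U10G and U20G over 21 shared positions. The miR-26a and miR-26b guides also shared their seed and differed by C11U and C21U. Reads could be divided between such names, and how the counting treated mismatches was not given in the sources used here. RefSeq listed 2 further miRNAs with the miR-26 seed, miR-1297 and miR-4465, and both had 0 counts in all 6 libraries. No other RefSeq miRNA had the seed of miR-101-3p or of the miR-148/miR-152 guides.

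The textbook targets carried matches to these seeds. The motifs TGCACTG (miR-148/miR-152), TACTTGA (miR-26) and GTACTGT (miR-101) are each the reverse complement of bases 2 to 8, written as DNA. They were searched on the transcribed strand of the 3′ UTR of 1 principal GENCODE release 29 transcript per gene. DNMT1 had 1 match to the miR-148/miR-152 motif in 321 bases and 0 to the other motifs. EZH2 had 1 match to the miR-26 motif and 2 to the miR-101 motif in 261 bases, and 0 to that of miR-148/miR-152. Among 889 3′ UTRs within 10% of the length of that of DNMT1, 2.47% held TGCACTG. Among 713 within 10% of the length of that of EZH2, 2.38% held TACTTGA and 2.66% held GTACTGT. The matches are shown with flanking bases, the motif in capitals, on GRCh38, minus strand. They describe sequence only, since no messenger RNA was measured here.
DNMT1 miR-148/miR-152 match, chr19:10133603-10133629: atccccaacaTGCACTGatgttgtgtt
EZH2 first miR-101 match, chr7:148807571-148807597: ggaacctcgaGTACTGTgggcaattta
EZH2 second miR-101 match, chr7:148807516-148807542: aatttgcaaaGTACTGTaagaataatt
EZH2 miR-26 match, chr7:148807385-148807406: gaataaagaaTACTTGAacttg

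Some members come from more than 1 gene. Both MIR26A1 and MIR26A2 give the same miR-26a-5p, and both MIR101-1 and MIR101-2 give the same miR-101-3p, so the locus cannot be read from the guide. Their opposite arms differ, as the RefSeq hairpins show (5′ to 3′, mature arms in capitals).
MIR26A1: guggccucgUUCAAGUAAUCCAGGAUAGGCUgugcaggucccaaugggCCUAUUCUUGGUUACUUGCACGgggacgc
MIR26A2: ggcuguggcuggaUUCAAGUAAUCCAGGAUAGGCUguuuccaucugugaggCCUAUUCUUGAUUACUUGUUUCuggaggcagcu
MIR101-1: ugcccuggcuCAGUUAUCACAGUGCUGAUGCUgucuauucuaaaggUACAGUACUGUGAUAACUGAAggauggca
MIR101-2: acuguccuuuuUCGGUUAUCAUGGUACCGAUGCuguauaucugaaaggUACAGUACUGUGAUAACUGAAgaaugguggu

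On GRCh38 all 3 miR-26 hairpins lie, in the sense direction, in introns of genes for small phosphatases of the RNA polymerase II tail. MIR26A1 is in CTDSPL (chr3:37969404-37969480, plus strand), MIR26A2 in CTDSP2 (chr12:57824609-57824692, minus strand) and MIR26B in CTDSP1 (chr2:218402646-218402722, plus strand). MIR148B is in an intron of COPZ1 (chr12:54337216-54337314, plus strand), and MIR152 is in an intron of COPZ2 (chr17:48037161-48037247, minus strand). COPZ1 and COPZ2 encode zeta subunits of the COPI vesicle coat. MIR148B also lies in an intron of another GENCODE gene on the same strand, AC078778.2. MIR101-2 is in an intron of RCL1, a ribosome biogenesis gene (chr9:4850297-4850375, plus strand). MIR148A (chr7:25949919-25949986, minus strand) and MIR101-1 (chr1:65058434-65058508, minus strand) lie within no longer GENCODE gene.

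Libraries held 23.95 M to 25.79 M counts in all, of which known miRNAs took 11.54 M to 16.42 M. Levels are given as CPM of the known miRNA counts after TMM scaling, which adjusts for differences in composition between libraries. On this scale a count of 3 was 0.195 to 0.251 CPM, a limit that covers counting error only. Control libraries 2 and 3 stood apart. In control library 2 the most abundant miRNA, miR-21-5p, took 66.04% of known miRNA counts, beside 49.38% to 59.06% in the other libraries, and its scaling factor was 0.761 where the others had 0.9857 to 1.114. Control library 3 was the farthest from the rest by chi-square per degree of freedom over known miRNAs, at 1122 or more from each other library, while each of the others had a library within 522.1. All 6 epithelial markers were found, at very different levels. Means in control and PRMT1 libraries were 4001 and 4016 CPM for miR-200a-3p, 2320 and 2140 for miR-200b-3p, 49.0 and 47.6 for miR-200c-3p and 19.4 and 21.4 for miR-141-3p, with groups that overlapped. The groups did not overlap for miR-429, lower in PRMT1 libraries (2597 and 2146 CPM, edgeR adjusted p = 0.789), and for miR-205-5p, higher in them (4.82 and 7.92 CPM, edgeR adjusted p = 0.741). On this scale the groups did not overlap for 10.2% of all tested names. Before scaling, the counts of miR-429 and of miR-205-5p overlapped between the groups. The liver marker miR-122-5p, the leukocyte marker miR-142-3p and the pluripotency marker miR-302a-3p had at most 19, 10 and 1 counts in any library. The muscle marker miR-1-3p had 32 to 85 counts, the neural marker miR-124-3p 149 to 502 and the red cell marker miR-451a 54 to 233. Both miR-124-3p and miR-451a were highest in PRMT1 library 3. In CPM, means in control and PRMT1 libraries were 4.71 and 3.28 for miR-1-3p, 13.6 and 23.3 for miR-124-3p and 5.62 and 11.6 for miR-451a. The means of miR-124-3p and miR-451a were thus above those of the epithelial marker miR-205-5p. The part of all these markers in the results was not tested. Levels between miRNAs are read counts per molecule type, and the guides have nearly the same length, but library preparation can recover miRNAs unequally.

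The members together took 1.28% to 1.95% of known miRNA counts per library, and nearly all of this was miR-26. The guides of miR-26a and miR-26b took 1.25% to 1.91%, and the other 7 members 0.0265% to 0.0393%. In order of mean level, miR-26a-5p was followed by miR-26b-5p, miR-152-3p, miR-148b-3p, miR-101-3p, miR-148a-3p, miR-26b-3p, miR-101-5p and miR-148a-5p. The first 2 stood clear of each other and of the rest in every library. The values of miR-152-3p and miR-148b-3p overlapped, as did those of miR-101-3p, miR-148a-3p and miR-26b-3p, so the order within those sets does not exceed the spread between libraries.

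**Figure D1:**
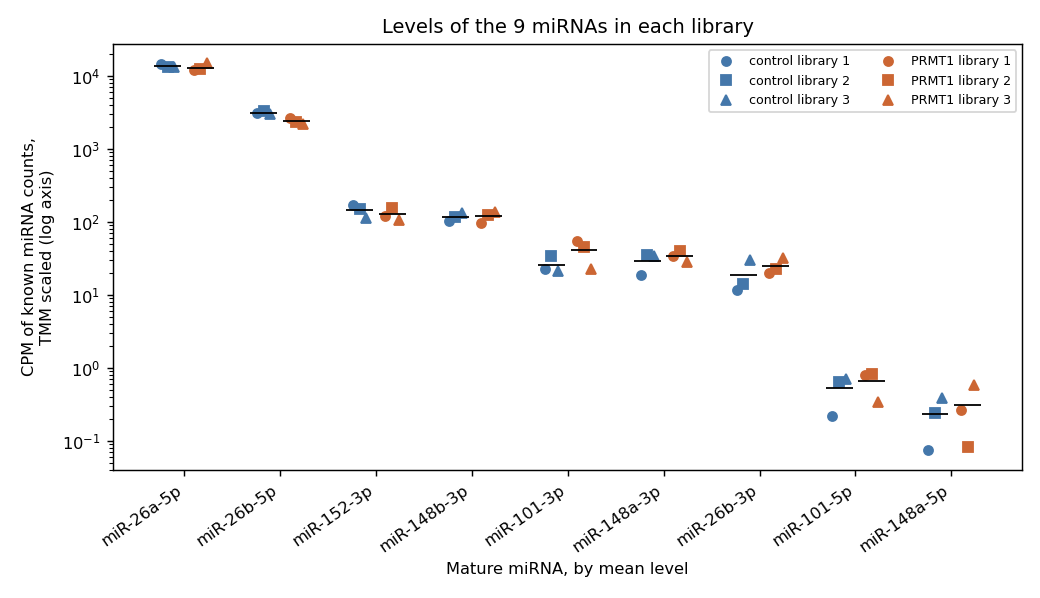
CPM (TMM scaled, log axis) of each of the 9 miRNAs in each library, with control libraries in blue, PRMT1 libraries in orange, a marker shape for each replicate number and a black line at each group's mean. MiR-26a-5p lies between 11870 and 14780 CPM, and miR-101-5p and miR-148a-5p lie below 1 CPM.

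No member passed the threshold. By edgeR's quasi-likelihood test with Benjamini-Hochberg adjustment over 668 tested names, 0 of the 7 members that passed the filter on low counts had an adjusted p under 0.05, as for 0% of all tested names. The smallest adjusted p of any tested name was 0.352. At an unadjusted p under 0.05 there was 1 member, miR-26b-5p, beside 5.39% (36) of all tested names. MiR-26b-5p was also the only tested member whose groups did not overlap, beside 10.2% of all tested names. Of the 7 members, 4 had a log2 fold change above 0 and 3 below, with a median of 0.02, and over all tested names 360 were above and 308 below, with a median of 0.04. The members miR-101-5p and miR-148a-5p did not pass the filter.

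**Figure D2:**
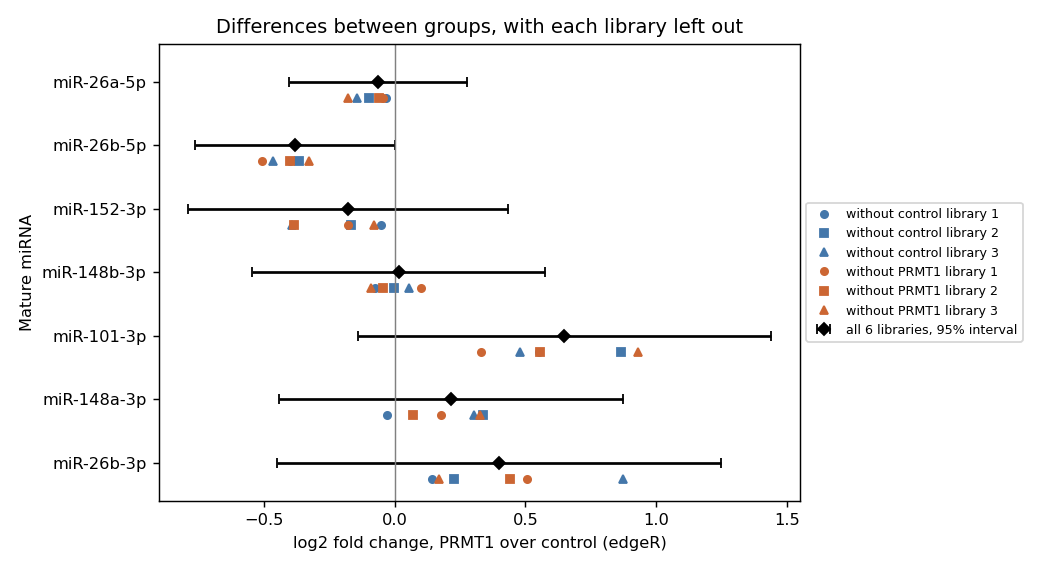
Log2 fold change of PRMT1 over control for the 7 tested members, with black diamonds and bars for the value and 95% interval from all 6 libraries and small markers for the value with 1 library left out. All intervals but that of miR-26b-5p, which ends at -0.0002, include 0, and miR-101-3p reaches furthest to the right, at 0.331 to 0.931 over the omissions.

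In the miR-26 family, the main guide overlapped between the groups, and the minor guide had a lower mean in PRMT1 libraries without passing the threshold. MiR-26a-5p stood at 14300, 13200 and 13080 CPM in control libraries 1 to 3 and at 11870, 12200 and 14780 CPM in PRMT1 libraries 1 to 3. With TMM scaling PRMT1 library 3 was the highest of all and PRMT1 library 1 the lowest, so the groups overlapped. The means were 13520 ± 676 and 12950 ± 1595 CPM (SD, n = 3), a log2 fold change of -0.06 (SE 0.15, edgeR adjusted p = 0.961). It ran from -0.177 without PRMT1 library 3 to -0.032 without control library 1, and was -0.143 without control library 3. The order of the libraries depended on scaling. Control library 1 was the highest with RLE scaling (14860 CPM), and control library 2 was the lowest without TMM (10040 CPM). The groups overlapped under each scaling.

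MiR-26b-5p stood at 3110, 3290 and 2993 CPM in control and 2674, 2349 and 2182 CPM in PRMT1 libraries. Each PRMT1 library lay below each control library. The means were 3131 ± 149.5 and 2402 ± 250.2 CPM (SD, n = 3), a log2 fold change of -0.38 (SE 0.17, 95% interval -0.76 to -0.0002, edgeR adjusted p = 0.741), or 0.767 of the control level. Direction held with each library left out, from -0.507 without PRMT1 library 1 to -0.326 without PRMT1 library 3, and stood at -0.364 with control library 2 left out and -0.466 with control library 3 left out. The separation depended on scaling. Without TMM, as plain CPM, control libraries held 3419, 2504 and 3334 and PRMT1 libraries 2849, 2400 and 2151, so that control library 2 fell among the PRMT1 values. With RLE or upper quartile scaling the groups again did not overlap. The closest libraries, control library 3 and PRMT1 library 1, stood at 2943 and 2666 CPM with RLE. With upper quartile scaling they nearly met, at 2790 and 2762 CPM.

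The ratio of miR-26a-5p to miR-26b-5p needs no scaling, since both counts come from the same library. It was 4.6, 4.01 and 4.37 in control libraries and 4.44, 5.19 and 6.77 in PRMT1 ones. PRMT1 library 1 lay within the control range and the other 2 PRMT1 libraries above it. The log2 ratio was 2.11 ± 0.10 and 2.43 ± 0.31 (SD, n = 3), a difference of 0.32 with a two-sided exact permutation p of 0.2 (0.75 adjusted over the 5 ratios computed). Leaving out PRMT1 library 3 gave a difference of 0.152, and leaving out PRMT1 library 1 gave 0.457. With 3 against 3 libraries this test cannot give a p below 0.1. Summed over both guides, miR-26 stood at 16660 ± 687.4 and 15350 ± 1396 CPM, with PRMT1 library 3 (16960 CPM) inside the control range of 16070 to 17410 CPM.

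The opposite arm of MIR26B had a log2 fold change of the other sign, also without passing the threshold. MiR-26b-3p stood at 11.67, 14.08 and 29.87 CPM in control and 19.58, 22.20 and 31.62 CPM in PRMT1 libraries. Control library 3 was close to the highest PRMT1 library, and the groups overlapped. The log2 fold change was 0.40 (SE 0.38, edgeR adjusted p = 0.836), and became 0.875 when control library 3 and 0.143 when control library 1 was left out.

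Since both arms come from the same hairpin, their ratio was compared within libraries. Counts of miR-26b-5p exceeded those of miR-26b-3p by 266, 233 and 100 times in control and by 136, 106 and 68.9 times in PRMT1 libraries. Control library 3 lay among the PRMT1 values. On the log2 scale the ratio was 7.52 ± 0.76 and 6.64 ± 0.50 (SD, n = 3), a difference of -0.88 with an exact permutation p of 0.3 (0.75 adjusted over 5 ratios). It was -1.319 without control library 3.

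The opposite arms of miR-26a, which tell its loci apart, were found for both genes. MiR-26a-1-3p, from the hairpin in CTDSPL, had counts of 69, 44 and 48 (control) and 50, 28 and 53 (PRMT1) (log2 fold change -0.30, SE 0.34, edgeR adjusted p = 0.869). MiR-26a-2-3p, from the hairpin in CTDSP2, had counts of 64, 90 and 70 (control) and 99, 71 and 69 (PRMT1) (0.06, SE 0.29, edgeR adjusted p = 0.983). Counts were thus assigned to the arms of both loci in all 6 libraries, with groups that overlapped for each arm. How the counting divided reads between similar names was not given in the sources used here. A further row of each table held reads of the mir-26 precursor family of Rfam, outside the known miRNA class. That row stood at 407.2, 446.7 and 422.4 CPM of all counts in control libraries and 431.8, 332.5 and 366.4 in PRMT1 ones, again with overlap.

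MiR-101-3p had the largest log2 fold change among the tested members, and it rested on 2 libraries. Its level was 22.68, 33.69 and 21.16 CPM in control and 54.78, 44.32 and 22.42 CPM in PRMT1 libraries. PRMT1 libraries 1 and 2 lay above all control libraries, while PRMT1 library 3 lay between control libraries 3 and 1. The means were 25.84 ± 6.837 and 40.51 ± 16.52 CPM (SD, n = 3), a log2 fold change of 0.65 (SE 0.35, 95% interval -0.14 to 1.44, edgeR adjusted p = 0.741). Leaving out PRMT1 library 1 gave 0.331, leaving out PRMT1 library 3 gave 0.931, and leaving out control library 2 or 3 gave 0.867 or 0.481, with no pass at the threshold in these cases.

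The opposite arms of miR-101 were close to the limit of detection. MiR-101-5p, from MIR101-1, had 3, 8 and 9 counts in control libraries and 12, 10 and 4 in PRMT1 ones. MiR-101-2-5p, from MIR101-2, had 2, 2 and 1 counts in control libraries and 4, 6 and 2 in PRMT1 ones. Counts of miR-101-3p exceeded those of miR-101-5p by 88.4, 49.6 and 28.7 times in control libraries and by 67.4, 51.4 and 59.7 times in PRMT1 ones. The PRMT1 values lay within the control range (difference of the log2 ratio 0.24, exact permutation p = 0.7, 0.875 adjusted over 5 ratios). Reads of the mir-101 precursor family numbered 16, 74 and 17 in control libraries and 59, 42 and 20 in PRMT1 ones. Control library 2 was the highest of these, and it was also the highest control library for miR-101-3p.

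In the miR-148/miR-152 family, all 3 guides overlapped between the groups and their log2 fold changes had different signs. MiR-152-3p was at 169.2, 149.6 and 110.7 CPM in control and 118.3, 154.7 and 106.7 CPM in PRMT1 libraries (log2 fold change -0.18, SE 0.27, edgeR adjusted p = 0.929). The group means were 143.2 ± 29.79 and 126.6 ± 25.02 CPM (SD, n = 3). Leaving out control library 1 or 3 gave -0.051 or -0.391, and leaving out PRMT1 library 2 or 3 gave -0.386 or -0.079.

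MiR-148b-3p had the smallest log2 fold change of the tested members. It was at 103.4, 116.1 and 130.7 CPM in control and 97.08, 123.1 and 133.9 CPM in PRMT1 libraries. The means were 116.7 ± 13.65 and 118.0 ± 18.93 CPM (SD, n = 3), and the log2 fold change was 0.02 (95% interval -0.55 to 0.58, edgeR adjusted p = 0.991). The sign of so small a value changed with the scaling.

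MiR-148a-3p was at 18.86, 34.41 and 34.15 CPM in control and 34.09, 39.31 and 28.02 CPM in PRMT1 libraries. Control library 1 was the lowest of all 6, and the other 2 control libraries lay among the PRMT1 values. The log2 fold change was 0.21 (SE 0.29, edgeR adjusted p = 0.9), and -0.031 without control library 1. The opposite arm miR-148a-5p had 1, 3 and 5 counts in control libraries and 4, 1 and 7 in PRMT1 ones, too few for a comparison of levels. On these counts the log2 ratio of miR-148a-3p to miR-148a-5p was 6.90 ± 0.55 and 6.89 ± 1.42 (SD, n = 3), with an exact permutation p of 1.0.

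The ratio of miR-148a-3p to miR-148b-3p, whose sequences differ at adjacent bases, was 0.183, 0.297 and 0.262 in control libraries and 0.351, 0.320 and 0.209 in PRMT1 ones. PRMT1 libraries 1 and 2 lay above the control range and PRMT1 library 3 within it (log2 difference 0.24, exact permutation p = 0.5, 0.833 adjusted over 5 ratios). Leaving out control library 1 or 2 gave a difference of 0.041 or 0.391, and leaving out PRMT1 library 1 or 3 gave 0.096 or 0.47. Summed over the 3 names with this seed, the level was 291.5, 300.1 and 275.5 CPM in control and 249.5, 317.1 and 268.7 CPM in PRMT1 libraries. With TMM scaling the PRMT1 libraries thus included both the lowest and the highest sum. With upper quartile scaling, control library 2 exceeded PRMT1 library 2 for each of the 3 guides. Of the sum, miR-152-3p took 49.4% ± 8.95 in control and 45.3% ± 4.88 in PRMT1 libraries, miR-148b-3p 40.5% ± 6.19 and 42.5% ± 6.34, and miR-148a-3p 10.1% ± 3.19 and 12.2% ± 1.63 (SD, n = 3).

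The other arms of these hairpins were rare. MiR-148b-5p had 2, 8 and 5 counts in control libraries and 9, 44 and 4 in PRMT1 ones, with PRMT1 library 2 far above the rest. That library was not the highest for the guide miR-148b-3p, at 123.1 CPM. MiR-152-5p had 3, 5 and 0 counts in control libraries and 4, 5 and 1 in PRMT1 ones, and the 0 of control library 3 allows up to 0.233 CPM. The mir-148/mir-152 precursor family had 2 counts in PRMT1 library 2 and 0 elsewhere.

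**Figure D3:**
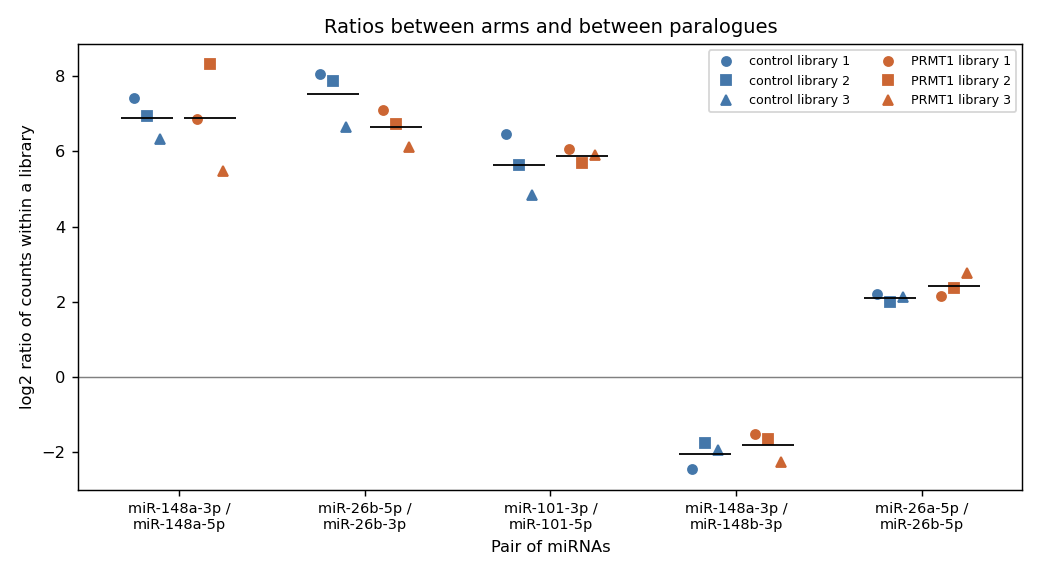
Log2 ratio of counts within each library for 3 pairs of arms and 2 pairs of paralogous guides, with control libraries in blue, PRMT1 libraries in orange, a marker shape for each replicate number and a black line at each group's mean. The groups overlap for all 5 ratios, and the ratio of miR-26b-5p to miR-26b-3p has means of 7.52 in control and 6.64 in PRMT1 libraries.

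The profile over the 6 libraries was compared with that of other miRNAs, as a description. Log2 CPM was used with a prior count of 2, and the points share the libraries, their depth and their scaling factors. For miR-101-3p the highest Pearson correlations over 6 libraries were with miR-576-3p (r = 0.994, mean 2.83 CPM), miR-503-5p (r = 0.984, 60.5 CPM) and miR-629-5p (r = 0.969, 22.5 CPM). Their log2 fold changes were 1.09, 0.30 and 1.17, none past the threshold (edgeR adjusted p = 0.741, 0.789 and 0.741). For miR-26a-5p they were miR-1468-5p (r = 0.952), miR-576-5p (r = 0.937) and miR-652-3p (r = 0.880). For miR-152-3p they were miR-619-5p (r = 0.935), miR-548ay-5p (r = 0.926) and miR-181b-5p (r = 0.918). These were picked as the highest among all tested names, and no test is given.

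Correlations between members ran in both directions. The lowest of all pairs of tested members over the 6 libraries was -0.852, between miR-26a-5p and miR-101-3p, and the next was -0.841, between miR-152-3p and miR-26b-3p. The highest was 0.72, between miR-148b-3p and miR-26b-3p. With TMM scaling, PRMT1 libraries 1 and 2 were high for miR-101-3p and low for miR-26a-5p, and PRMT1 library 3 was the reverse. The other pair of EZH2-targeting guides from different families, miR-26b-5p and miR-101-3p, had -0.162. Correlations were -0.024 between miR-26a-5p and miR-26b-5p, 0.306 between miR-148a-3p and miR-148b-3p, -0.407 between miR-148b-3p and miR-152-3p and -0.665 between the arms miR-26b-5p and miR-26b-3p. With 6 libraries these are given without a test.

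Other miRNAs commonly described as targeting DNA methyltransferases, Polycomb proteins, KDM1A or histone deacetylases were compared in the same fit. Of 18 listed, 17 were tested, 8 had a log2 fold change above 0 and 9 below, the median was -0.03, and 0 passed the threshold, beside 0% of all tested names. The most abundant was miR-29a-3p, which targets DNMT3A and DNMT3B, at 7016 ± 2083 and 9665 ± 2217 CPM (log2 fold change 0.46, SE 0.24, edgeR adjusted p = 0.741). The next were miR-34a-5p, a p53 target (-0.03, SE 0.17), miR-138-5p (-0.05, SE 0.20) and miR-200b-3p, an epithelial miRNA that targets SUZ12 (-0.12, SE 0.22). The median of the list was 0.136 without control library 2, the library with the high share of miR-21-5p. MiR-449a alone of the list had an unadjusted edgeR p under 0.05 (0.0415) and groups that did not overlap. It was lower in PRMT1 libraries, at 139.7 and 94.4 CPM (log2 fold change -0.57, SE 0.24, edgeR adjusted p = 0.741). The shares over all tested names were 5.39% and 10.2%.

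**Figure D4:**
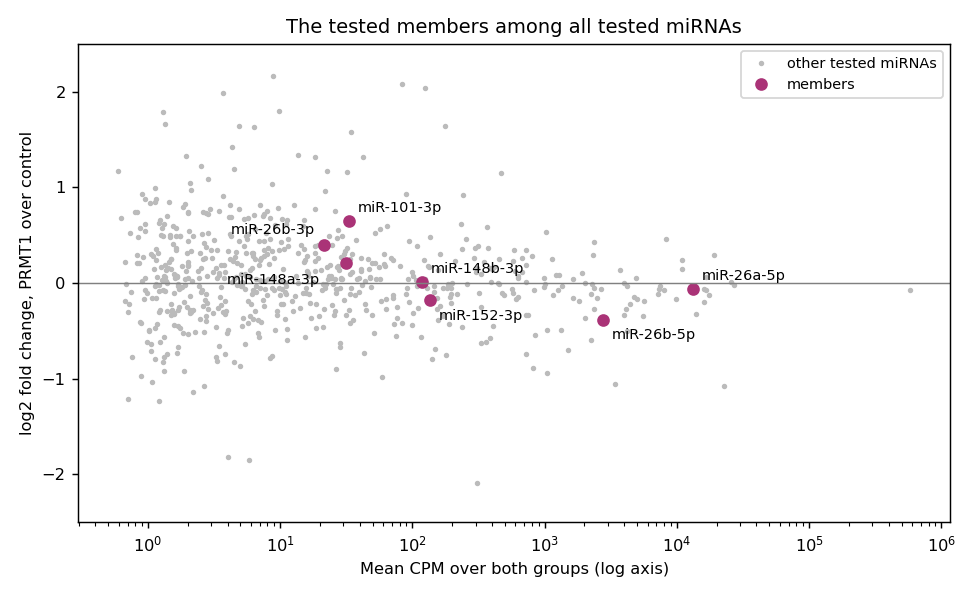
Log2 fold change of PRMT1 over control against mean CPM (log axis) for the 668 tested miRNAs in grey, with the 7 tested members in purple. The axis ends at 2.5 in both directions, and 3 miRNAs beyond it are not shown. The members lie within the cloud of miRNAs of similar level, from -0.38 for miR-26b-5p to 0.65 for miR-101-3p.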

How the data were processed

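Small RNA reads from 3 control and 3 PRMT1 libraries were sequenced and filtered by BGI, per the series' design text. The library protocol in the labels speaks of mRNA enrichment or rRNA removal, while the tables hold small RNAs, so how the small RNAs were selected is not given in the sources used here. HISAT, Bowtie2, RSEM and GRCh37.p13 are named, without versions or roles, per the submitters' processing notes, and how reads matching several names were divided is not given in the sources used here. Each deposited table gives whole-read counts per small RNA, per the file headers. The deposited TPM values matched the CPM of the library total within 0.005 and served only for that check. A name missing from a table was taken as 0.

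Rows of the known mature class (1727 names) were filtered with filterByExpr, which left 668 names with 99.98% of the counts, scaled with TMM and tested by edgeR 4.0.16 (R 4.3.3; quasi-likelihood, robust) on all names, without a block. Calls used a Benjamini-Hochberg adjusted p of 0.05. SEs are the log2 fold change divided by the root of F. Ratios used counts plus 0.5 and two-sided exact permutation tests. The script was tested on simulated data. No libraries were copies of each other (smallest chi-square per degree of freedom 300.4).

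The named miRNAs were the 9 members, the opposite arms of their hairpins, the 4 most abundant listed chromatin miRNAs and cell type markers. For the most abundant member of each family, the 3 names of highest correlation were also named. MiR-449a was added as the listed miRNA with an unadjusted edgeR p under 0.05. Members and lists were chosen with earlier results of these data known. Sequences and hairpin positions are from RefSeq (GRCh38.p14), and hosts and 3′ UTRs from GENCODE release 29 (GRCh38), not the build of the processing notes. Alternatives were other scalings, filters and tests (DESeq2 1.42.0, limma-voom with limma 3.58.1), omission of miR-21-5p, a replicate block, summed seed families and omission of each library. DESeq2 on all names and the use of all rows were chosen after seeing the data.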

Additional observations from a re-analysis of the deposited data

How the results depend on the processing

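The count of members past the threshold was 0 under every alternative run for it. The count of known miRNAs past it, 0 with edgeR (36 at an unadjusted p under 0.05) and with limma-voom, was 3 with DESeq2 on the filtered names, 4 with DESeq2 on all names, 9 without a filter and 0 to 1 with each library left out, the 1 being without PRMT1 library 1. None of those called was a member, and the cause was not tested. A block on the replicate number gave 1, also no member. Same-numbered libraries had correlations of -0.091, 0.195 and -0.122 in their deviations from the group means. These values do not show a pairing by number, but with 3 libraries a group they cannot exclude one. The block changed no call of a member.

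Summed seed families gave the value of the sum, -0.15 for miR-26 and -0.086 for miR-148/miR-152, not that of the member alone. Summing did not apply to miR-26b-3p and miR-101-3p. With that limit, log2 fold changes of miR-26a-5p, miR-26b-5p, miR-26b-3p, miR-152-3p and miR-101-3p kept their sign under every alternative run for them. That of miR-148b-3p (0.016) was -0.028 with RLE, -0.029 with upper quartile scaling, -0.028 with DESeq2 on the filtered names, -0.021 with DESeq2 on all names, -0.006 without miR-21-5p, -0.120 with all rows and -0.092 to 0.101 with each library left out. Both miR-148b-3p and miR-148a-3p took the value -0.086 when summed with miR-152-3p, and miR-148a-3p ran from -0.031 to 0.337 with each library left out. With all rows the median over known miRNAs moved from 0.043 to -0.093. The difference in log2 ratio ran from -0.721 to 0.696 for miR-148a-3p to miR-148a-5p, whose main value was -0.007, and from -0.164 to 0.649 for miR-101-3p to miR-101-5p with each library left out. The other 3 ratios kept their sign, at 0.152 to 0.457 for miR-26a-5p to miR-26b-5p, 0.041 to 0.470 for miR-148a-3p to miR-148b-3p and -1.319 to -0.614 for miR-26b-5p to miR-26b-3p. The median of the chromatin list was 0.051 with library size only and -0.051 to 0.136 with each library left out. Depth limits the opposite arms of miR-148a and miR-101, at no more than 12 counts.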
